A study of Homo sapiens with 6 samples.

Results

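The genes described here are 10 heat shock proteins of the cytosol and the mitochondrion, HSPA1A, HSPA1B, HSPA8, HSPH1, DNAJB1, BAG3, HSP90AA1, HSPB1, HSPD1 and HSPE1. They were taken by symbol from a table of read counts for 23368 genes. All 10 were found, and all 10 had enough reads for a test. The RNA came from 1205Lu cells, an established line from a metastatic human melanoma. SOX10 cells carried the plasmid pCMV6-SOX10, made for expression of the transcription factor SOX10, and their controls carried the empty pCMV6. Per group there were 3 biological replicates, transfected transiently with 7.8 µg of plasmid per flask by the lipid reagent FuGENE 6 and lysed after 24 h. Control cells thus also received plasmid DNA and transfection reagent, and untransfected cells are not part of the comparison. The population was sequenced as a whole, so fewer cells of a kind and less RNA per cell cannot be told apart.

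Heat shock proteins are chaperones, which hold, fold or refold other proteins. HSP70 proteins bind exposed stretches of client proteins in a cycle of ATP hydrolysis. J proteins such as DNAJB1 start that cycle, and nucleotide exchange factors such as HSPH1 and BAG3 complete it. HSP90 acts later on clients such as kinases and hormone receptors, small heat shock proteins such as HSPB1 hold unfolded proteins without ATP, and HSPD1 and HSPE1 form the folding chamber of the mitochondrial matrix. The transcription factor HSF1 raises many of these genes under heat or other protein damage, through heat shock elements, which are repeats of GAA and its inverse TTC. HSPA8 is the HSP70 made at all times, whereas HSPA1A and HSPA1B are the stress-inducible copies. In tumor cells, melanoma included, several of these chaperones are known to be abundant without heat.

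Many of these genes are known for heat shock elements, so stretches with matches to short motifs of such repeats are given for 6 members. The stretches come from RefSeq on GRCh38.p14 and are read 5′ to 3′ on the gene's strand. HSPB1, which also had a match, is not printed. Binding of HSF1 to any match was not tested. Capitals mark each match within the printed stretch to the motifs GAANNTTC and TTCNNGAA, which are palindromes and thus read alike on both strands, and which overlap where the repeats run on. The search covered 250 bases before each annotated start.
HSPA1A (chr6:31815412-31815469, + strand): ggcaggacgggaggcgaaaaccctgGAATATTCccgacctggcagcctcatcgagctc
HSPA1B (chr6:31827608-31827665, + strand): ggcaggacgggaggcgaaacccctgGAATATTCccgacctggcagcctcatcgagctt
HSPA8 (chr11:123062154-123062216, - strand): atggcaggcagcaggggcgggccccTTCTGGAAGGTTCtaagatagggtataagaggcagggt
DNAJB1 (chr19:14518412-14518499, - strand): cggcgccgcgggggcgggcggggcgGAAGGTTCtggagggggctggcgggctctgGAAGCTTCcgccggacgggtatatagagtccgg
HSP90AA1 (chr14:102087080-102087157, - strand): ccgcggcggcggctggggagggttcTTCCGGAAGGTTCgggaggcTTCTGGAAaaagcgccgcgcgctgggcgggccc
HSPD1 (chr2:197500043-197500090, - strand): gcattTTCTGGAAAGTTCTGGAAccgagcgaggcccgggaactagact

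A match was found before at least 1 annotated start in 7 of the 10 members, or in 7 of their 14 start windows. Over all 35116 RefSeq promoters, 11.6% held a match, 1.32% held at least 2 and 0.145% at least 3. HSPA8 had 4 matches, of which the 2 nearest the start are in the printed stretch and the other two lie further upstream, the farthest at 230 bases before the start. HSP90AA1 and HSPD1 had 3 each before 1 of their 2 starts, DNAJB1 had 2 before 1 of its 3 starts, and HSPA1A, HSPA1B and HSPB1 had 1 each. HSPH1, BAG3 and HSPE1 had none in these windows, which says only that these letters are not there. HSPD1 and HSPE1 lie head to head on opposite strands, and the HSPD1 matches lie 294 to 311 bases before the start of HSPE1 on the other strand. Around their match HSPA1A and HSPA1B differed at 6 of 128 bases.

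The libraries were shallow and unequal, with 2544420 to 4167393 reads assigned to genes in the SOX10 group and 867917 to 2066520 in the control group. One read was worth 0.24 to 0.393 CPM (reads of a gene per 1000000 assigned reads) in SOX10 libraries and 0.484 to 1.15 CPM in control libraries. SOX10 itself did not pass the test, at 21.5, 18.6 and 34.3 CPM in SOX10 libraries against 16.4, 20.6 and 21.3 CPM in control libraries, and edgeR gave an adjusted p of 0.927. The log2 fold change of SOX10, 0.35, was 0.03 without SOX10 replicate 3. PMP2, the gene in the title of the series, had 66, 53 and 103 reads in SOX10 libraries and 0, 1 and 4 in control libraries (edgeR adjusted p = 0.000103). Gene counts do not separate plasmid reads from those of the cell's own SOX10. Of the lineage markers S100B, S100A1 and ERBB3 lay between 269 and 533 CPM in all libraries, while the pigment genes MLANA, TYR, TYRP1 and DCT had 4, 9, 4 and 6 reads in all 6 libraries together. MITF and PMEL, also on that list, had 75 and 19 reads. The epithelial marker KRT18 lay between 38.3 and 50.6 CPM, while CDH1, EPCAM, KRT5, KRT14 and KRT8 had 5, 4, 6, 20 and 21 reads. Summed endothelial markers reached at most 6.72 CPM in SOX10 libraries and 8.70 CPM in control libraries. Summed leukocyte markers reached at most 3.84 CPM in SOX10 libraries and 5.48 CPM in control libraries, and the fibroblast markers COL1A1, COL1A2, DCN and LUM had 42, 24, 11 and 0 reads in all 6 libraries together. PDGFRA, also on the fibroblast list, ran from 86.9 to 159 CPM in SOX10 libraries and from 98.6 to 128 CPM in control libraries.

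No heat shock protein changed past the threshold between SOX10 and control cells. Of the 10 members 0 rose and 0 fell by the quasi-likelihood test of edgeR, at an adjusted p under 0.05 over all 10678 tested genes, where 12 genes or 0.112% were called. DESeq2 and limma-voom also called 0 of them. Adjusted p-values of the members ran from 0.750 for HSPA1B to 0.998 for HSPA1A and DNAJB1. At an unadjusted p under 0.05 the edgeR test found 1 member, HSPA1B, against 6.23% of all tested genes, while DESeq2 found 0 and limma-voom 2, HSPA1B and HSPE1. The median log2 fold change of the members was 0.05, and 7 of 10 were positive. Over all tested genes the median was 0.01 and 51.3% were positive. In 1 member every SOX10 library lay above every control library, as in 5.72% of all tested genes, and in 1 member every SOX10 library lay below, as in 6.03%. Together the members took 0.704%, 0.708% and 0.745% of the assigned reads in SOX10 libraries and 0.655%, 0.689% and 0.695% in control libraries, which was mostly HSPA8.

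**Figure D1:**
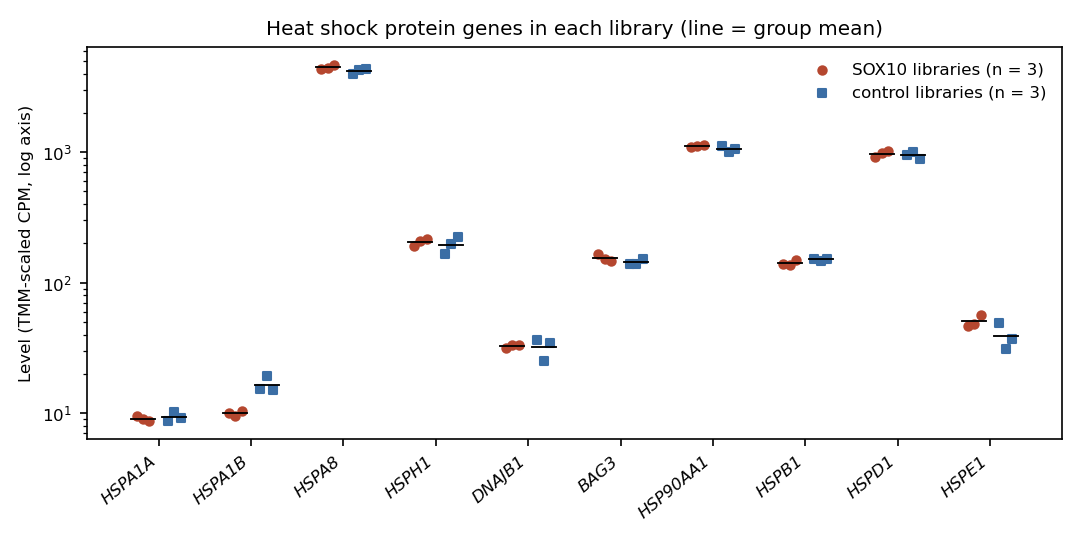
Level of the 10 members in each library, in CPM scaled by TMM on a log axis, with 3 SOX10 libraries (circles) left of 3 control libraries (squares) and a line at each group mean. HSPA1B is apart, at 9.48 to 10.3 CPM in SOX10 libraries and 14.98 to 19.4 CPM in control libraries, HSPA8 is just apart, and the groups of the other 8 genes overlap.

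HSPA8, the constitutive HSP70 that also strips clathrin from vesicles, had the most reads of the members. It had 4368, 4406 and 4674 CPM in SOX10 libraries against 4008, 4249 and 4362 CPM in control libraries. Every SOX10 library lay above every control library, with 4368 CPM in SOX10 replicate 1 and 4362 CPM in control replicate 3 as the closest pair. The mean was 4482 ± 167 CPM in SOX10 cells and 4206 ± 180 CPM in control cells (SD, n = 3 each). The log2 fold change was 0.09 (SE 0.08; edgeR adjusted p = 0.929). With 63492 reads behind it, this was also the most precise member, and the 95% interval of its fold ran from 0.952 to 1.19.

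HSPA1A and HSPA1B, the inducible HSP70 genes, had the lowest levels of the members per kilobase of whole transcript. Their starts lie 12195 bases apart on chromosome 6, and their coding sequences differ at 4 of 1923 bases. HSPA1A had 9.55, 9.09 and 8.64 CPM in SOX10 libraries against 8.76, 10.3 and 9.18 CPM in control libraries, and the groups overlapped. HSPA1B had 10.1, 9.48 and 10.3 CPM in SOX10 libraries against 15.3, 19.4 and 14.98 CPM in control libraries, and here every SOX10 library lay below every control library. The log2 fold change of HSPA1A was -0.04 (SE 0.36; edgeR adjusted p = 0.998). That of HSPA1B was -0.70 (SE 0.30), a fold of 0.614 with a 95% interval from 0.397 to 0.951, unadjusted p = 0.0303 and adjusted p = 0.750 by edgeR. Over the alternatives its adjusted p ran from 0.549 to 0.9999, and its log2 fold change from -1.06 after thinning all libraries to equal depth to -0.59 without control replicate 2.

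The values of this pair rest on few reads. HSPA1A had 36, 23 and 36 reads in SOX10 libraries and 8, 9 and 19 in control libraries, and HSPA1B had 38, 24 and 43 in SOX10 libraries and 14, 17 and 31 in control libraries. Cut into windows of 50 bases, 72.6% of the HSPA1A transcript and 73.5% of that of HSPA1B were also found in another gene of GENCODE release 29, chiefly in each other. In the coding part the share was 93.9% for HSPA1A and 96.6% for HSPA1B, and after the coding part it was 0 in each. The table keeps reads that align to more than 1 place in a class of their own, outside the gene counts. The read length is not stated in the labels or the table, so 50 bases is a chosen length. HSPA1B also shares 36.5% of its exonic bases with AL671762.1 on the same strand in that annotation.

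**Figure D2:**
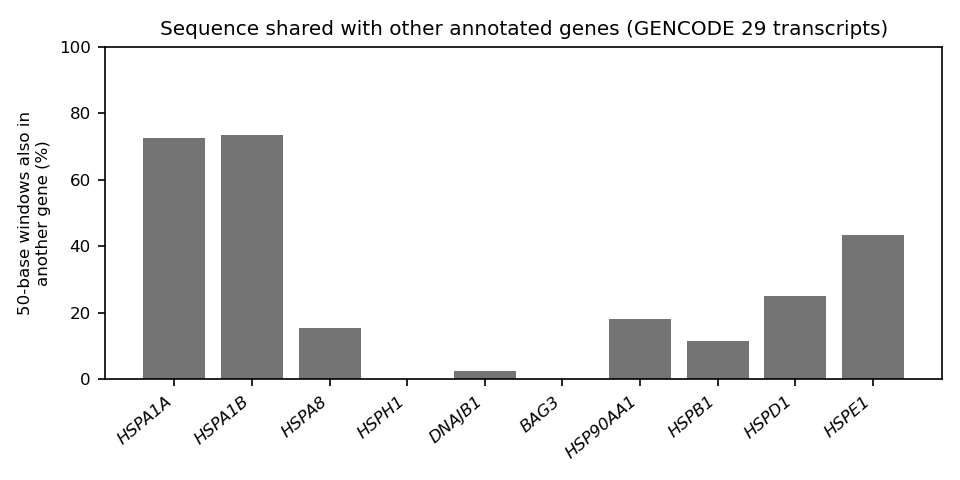
Share of each member's transcript, cut into 50-base windows, that is also found in another annotated gene, in percent on the vertical axis with 1 bar per member. Readthrough genes named after the member are not counted. HSPA1A and HSPA1B stand highest at 72.6% and 73.5%, HSPE1 is at 43.5%, and HSPH1 and BAG3 are at 0.

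The split of reads between the copies does not depend on scaling. HSPA1B took 51.4%, 51.1% and 54.4% of the reads of the pair in SOX10 libraries and 63.6%, 65.4% and 62.0% in control libraries. The mean share was 52.3% ± 1.87 in SOX10 cells and 63.7% ± 1.69 in control cells (SD, n = 3 each), and all SOX10 libraries lay below all control libraries. An exact two-sided permutation test gave p = 0.1, the smallest value that 3 against 3 libraries can give. Each library's exact 95% binomial interval, which covers counting error only, was wide, such as 39.4% to 63.2% in SOX10 replicate 1 and 40.7% to 82.8% in control replicate 1. All 6 intervals overlap each other. This comparison was chosen after the data were seen. Summed to a single gene, the pair gave a log2 difference of -0.43 (SE 0.23), unadjusted p = 0.0771 and adjusted p = 0.854 by edgeR.

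**Figure D3:**
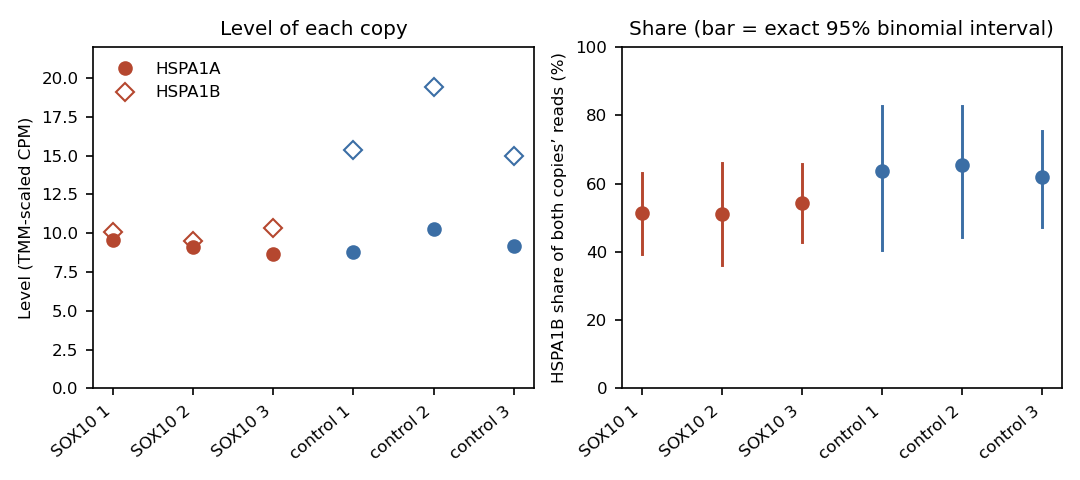
Left, level of HSPA1A (filled circles) and HSPA1B (open diamonds) in each library, in CPM scaled by TMM. Right, HSPA1B reads as a percent of the reads of both copies, with exact 95% binomial intervals. HSPA1A lies near the same level in all 6 libraries, while HSPA1B lies at 9.48 to 10.3 CPM in SOX10 libraries and at 14.98 to 19.4 CPM in control libraries.

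Set against the constitutive form, the inducible pair together had 4.50, 4.22 and 4.06 reads per 1000 HSPA8 reads in SOX10 libraries and 6.01, 6.99 and 5.54 in control libraries. The groups did not overlap, the log2 difference was -0.53, and the exact two-sided permutation test gave p = 0.1, again the smallest value possible. HSPA1B alone against HSPA8 gave -0.82 on the log2 scale (exact permutation p = 0.1), and HSPA1A alone gave -0.14 (exact permutation p = 0.3) with overlapping groups.

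For the HSP70 partners DNAJB1, HSPH1 and BAG3 the groups overlapped. DNAJB1, a J protein that delivers clients to HSP70 and is strongly heat-induced, had 31.3, 33.6 and 33.4 CPM in SOX10 libraries against 36.2, 25.1 and 34.3 CPM in control libraries. The SOX10 libraries all fell inside the control range. The log2 fold change was 0.02 (SE 0.205; edgeR adjusted p = 0.998), and the 95% interval of the fold ran from 0.755 to 1.36. DNAJB1 reads per 1000 HSPA8 reads were 7.17, 7.63 and 7.14 in SOX10 libraries and 9.02, 5.92 and 7.86 in control libraries (exact permutation p = 0.9).

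HSPH1, the HSP110 exchange factor that also helps to dissolve aggregates, had 191, 210 and 217 CPM in SOX10 libraries against 165, 197 and 224 CPM in control libraries. The control libraries spread more widely and enclosed all SOX10 values. Its log2 fold change was 0.06 (SE 0.12; edgeR adjusted p = 0.964), and it was -0.04 without control replicate 1.

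BAG3, an exchange factor that links HSP70 to autophagy of damaged proteins, had 166, 153 and 147 CPM in SOX10 libraries against 139, 139 and 152 CPM in control libraries. Only control replicate 3 reached into the SOX10 range. Its log2 fold change of 0.11 (SE 0.12) gave an edgeR adjusted p of 0.933. The 95% interval of the fold ended at 1.36 for DNAJB1, 1.24 for HSPH1 and 1.27 for BAG3.

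HSP90AA1, the stress-inducible cytosolic HSP90, had 1090, 1124 and 1137 CPM in SOX10 libraries against 1117, 1008 and 1062 CPM in control libraries. Control replicate 1 lay within the SOX10 range. The log2 fold change was 0.07 (SE 0.09; edgeR adjusted p = 0.936), and the 95% interval of the fold ran from 0.927 to 1.19. Its constitutive relative HSP90AB1, named after its values were seen, stood at 3608.5 ± 78.1 CPM in SOX10 cells and 3427 ± 11.8 CPM in control cells (SD, n = 3 each). Every SOX10 library was above every control library for HSP90AB1, and its log2 fold change of 0.07 (SE 0.08) had an edgeR adjusted p of 0.933.

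HSPB1, or HSP27, a small heat shock protein that also acts on actin filaments, had 140, 137 and 148 CPM in SOX10 libraries against 152, 146 and 153 CPM in control libraries. SOX10 replicate 3 alone lay within the control range. The log2 fold change was -0.09 (SE 0.11; edgeR adjusted p = 0.942). It was negative in all 16 alternatives, from -0.12 to -0.04, and called in none of them.

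HSPD1 and HSPE1 form a single folding machine, the chamber HSP60 and its lid HSP10. HSPD1 had 916, 989 and 1021 CPM in SOX10 libraries against 952, 1013 and 894 CPM in control libraries, and the groups overlapped. Its log2 fold change was 0.04 (SE 0.09; edgeR adjusted p = 0.974). HSPE1 had 47.0, 48.6 and 56.4 CPM in SOX10 libraries against 49.3, 30.9 and 36.7 CPM in control libraries. Control replicate 1 lay among the SOX10 libraries and the other control libraries below them.

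HSPE1 had the most positive log2 fold change of the members, 0.39 (SE 0.19), with unadjusted p = 0.0515 and adjusted p = 0.810 by edgeR. It was -0.02 after thinning to equal depth, a single random draw, and between 0.29 and 0.56 without single libraries. HSPE1 reads per 1000 HSPD1 reads were 51.3, 49.1 and 55.2 in SOX10 libraries and 51.8, 30.5 and 41.1 in control libraries (exact two-sided permutation p = 0.3), and the groups overlapped. HSPE1 shares 43.5% of its 50-base windows with other genes, searched on either strand and without counting the readthrough gene HSPE1-MOB4. The gene that shares most of them is HSPD1, with 25.8% of the windows. In GENCODE release 29 HSPE1 shares 9.71% of its exonic bases with the readthrough gene HSPE1-MOB4 and 14.2% with HSPD1 on the opposite strand. The bases of that overlap belong to both genes at the same place, and whether they also occur elsewhere in the genome was not checked. HSPE1-MOB4 is a row of the table too, with 0 reads in every library, and whether reads were separated by strand is not known here, so the counted level of HSPE1 is uncertain.

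**Figure D4:**
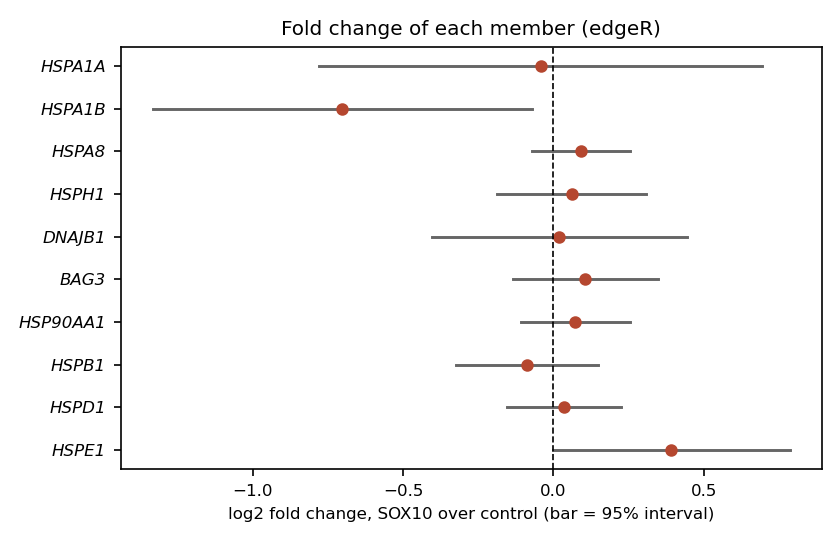
Log2 fold change of each member, SOX10 over control, as points with 95% intervals from edgeR, and a dashed line at no change. The interval of HSPA1B lies below 0 and the others cross it, that of HSPE1 barely, from -0.0027 to 0.79, with the narrowest for HSPA8.

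Per kilobase of the principal transcript in GENCODE release 29, the levels fell into a steep order that depends in part on the length used. In SOX10 cells HSPA8 stood at 1820 ± 67.7 CPM per kilobase, HSPD1 at 397 ± 22.02, HSP90AA1 at 331 ± 7.05, HSPB1 at 156 ± 6.23, BAG3 at 60.3 ± 3.81, HSPE1 at 53.3 ± 5.30, HSPH1 at 39.7 ± 2.56, DNAJB1 at 14.5 ± 0.555, HSPA1B at 3.95 ± 0.171 and HSPA1A at 3.66 ± 0.184 (SD, n = 3). In control cells the same order gave 1708 ± 73.2, 388 ± 24.1, 314 ± 16.2, 166 ± 4.11, 55.8 ± 2.79, 41.0 ± 9.92, 37.6 ± 5.62, 14.1 ± 2.60, 6.58 ± 0.981 and 3.79 ± 0.317 CPM per kilobase (SD, n = 3). Neighbours whose ranges overlapped were BAG3 and HSPE1 and the HSPA1B and HSPA1A pair in SOX10 cells, and HSPE1 and HSPH1 in control cells. HSPA8 exceeded HSPA1A 497-fold in SOX10 cells and 451-fold in control cells on this scale. Reads that align to several places are outside these counts. The levels were therefore also divided by the kilobases of 50-base windows found in no other gene, readthrough genes aside. On that scale the excess of HSPA8 over HSPA1A was 161-fold in SOX10 cells and 146-fold in control cells. HSPA1B then averaged 15.2 in SOX10 cells and 25.3 in control cells, and DNAJB1 15.2 in SOX10 cells and 14.8 in control cells, all in CPM per unshared kilobase. HSPE1 averaged 99.5 in SOX10 cells and 76.5 in control cells, above BAG3 with 61.5 in SOX10 cells and 56.9 in control cells. HSPA1B thus matched or passed DNAJB1 by this length. For HSPE1 the length also leaves out windows shared with HSPD1, whose exons overlap it on the opposite strand. A read there can have a single place, so the HSPE1 level by this length may be too high. The places of HSPA1B, DNAJB1, HSPE1 and BAG3 in the order are uncertain.

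The members did not move as a block from library to library. SOX10 replicate 3 held the highest value of 4 members and the lowest of 1, and control replicates 1 and 2 held the lowest of 3 members each, but also the highest of 1 and 2. The median deviation of the members from their means over all libraries was between -0.03 and 0.06 on the log2 scale in every library. Within groups, the coefficient of variation ran from 3.28% for HSPB1 to 16.9% for HSPE1. The other members with over 10% were HSPA1B, DNAJB1 and HSPH1.

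Other chaperone genes came from 8 lists of 111 genes, of which 95 had enough reads for the same test. By edgeR 0 of the 95 were called, against 0.112% of all tested genes, and 6 had an unadjusted p under 0.05, which is 6.32% against 6.23% of all tested genes. Every SOX10 library lay above every control library in 4 of them, or 4.21%, and below in 7, or 7.37%. Their median log2 fold change was 0.07, with 67.4% positive, beside 0.01 and 51.3% over all genes.

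Among 9 tested relatives of HSP70 the median log2 fold change was 0.09, and none had an unadjusted p under 0.05. HSPA13, an HSP70 of the secretory pathway, had 0.34 (SE 0.19), which was 0.07 without SOX10 replicate 3. HSPA5, the HSP70 of the endoplasmic reticulum, had 0.12 (SE 0.09) at 1131 ± 79.2 CPM in SOX10 cells and 1042 ± 102 CPM in control cells (SD, n = 3 each), and stood at 0.06 without SOX10 replicate 1. For 17 HSP90 relatives and co-chaperones the median was 0.08, and none had an unadjusted p under 0.05. AHSA1, which speeds the ATP hydrolysis of HSP90, had 0.28 (SE 0.15), and PTGES3, or p23, which steadies the client-bound form, 0.26 (SE 0.16). PTGES3 had 74.8, 72.7 and 73.0 CPM in SOX10 libraries against 72.3, 44.6 and 64.7 CPM in control libraries, so the groups were just apart. Without control replicate 2 PTGES3 was at 0.12, and without control replicate 3 AHSA1 was at 0.47. Genes listed as small heat shock proteins beside HSPB1 were mostly too rare, with 2 of 9 tested. Whether HSPB11 acts as a small heat shock protein was not tested. The lens and muscle protein CRYAB, also called HSPB5, had 0.27 (SE 0.58) and HSPB11 0.24 (SE 0.30). CRYAB was at -0.06 without SOX10 replicate 1 and -0.02 without control replicate 2, and HSPB11 at -0.12 without control replicate 3. CRYAB shares 20.6% of its exonic bases with opposite-strand genes.

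Of 17 tested J proteins 2 had an unadjusted p under 0.05, in opposite directions, and the list median was 0.04. DNAJB5 had 44.8, 47.8 and 36.5 CPM in SOX10 libraries against 57.0, 58.3 and 61.8 CPM in control libraries, with every SOX10 library lower and a log2 fold change of -0.47 (SE 0.17). DNAJC27 had 46, 34 and 42 reads in SOX10 libraries against 8, 4 and 13 in control libraries, its log2 fold change being 0.86 (SE 0.38). Their adjusted p-values by edgeR were 0.567 for DNAJB5 and 0.763 for DNAJC27, and DNAJC27 shares 3.57% of its exonic bases with an antisense transcript. Of 9 tested exchange factors of HSP70, with a list median of 0.08, GRPEL2, which serves the mitochondrial HSP70, had 82.1 ± 6.21 CPM in SOX10 cells and 108 ± 2.68 CPM in control cells (SD, n = 3 each). Its groups did not overlap, and its log2 fold change of -0.39 (SE 0.13) gave an edgeR adjusted p of 0.499. BAG6, a chaperone of membrane proteins, had 0.22 (SE 0.15).

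The cytosolic chaperonin and prefoldin, which fold actin and tubulin, had 14 tested genes with a median log2 fold change of 0.10 and none with an unadjusted p under 0.05. Its subunit CCT7 had 0.20 (SE 0.12), which was 0.12 without control replicate 3, and the prefoldin subunit VBP1 0.34 (SE 0.23), which was 0.61 without control replicate 3. Of 12 genes of mitochondrial protein quality control, with a median of 0.03, TIMM44, which holds HSP70 at the import channel, had 26.3, 20.9 and 22.8 CPM in SOX10 libraries against 28.5, 39.998 and 34.8 CPM in control libraries. Its log2 fold change was -0.55 (SE 0.22), unadjusted p 0.0177 and adjusted p 0.685 by edgeR. HSCB, a J protein of iron-sulfur cluster assembly, had -0.52 (SE 0.34), and shares 20.6% of its exonic bases with CHEK2 on the opposite strand. Without control replicate 2 HSCB was at -0.21.

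The list of heat shock factors and their other targets was the only list with a median below 0, at -0.12. Of its 15 tested genes 10 were negative and 33.3% positive, beside 51.3% positive over all tested genes. Whether the listed genes are targets of these factors in these cells was not tested. IER5L, a relative of the HSF1-binding protein IER5, had 298, 228 and 217 CPM in SOX10 libraries against 302, 378 and 327 CPM in control libraries, and every SOX10 library was lower. Its log2 fold change of -0.43 (SE 0.12) had an edgeR adjusted p of 0.316. It was called lower in 2 of 16 alternatives, with adjusted p-values from 0.0335 without SOX10 replicate 1 to 0.862 without SOX10 replicate 3, and it shares 39.2% of its exonic bases with transcripts of the opposite strand. SQSTM1, the autophagy receptor p62, had 752 ± 117 CPM in SOX10 cells and 906 ± 98.7 CPM in control cells (SD, n = 3 each). Its log2 fold change of -0.27 (SE 0.11) had an edgeR adjusted p of 0.690 and was -0.15 without SOX10 replicate 3, and 22% of its exonic bases are shared with opposite-strand genes. HSF1 itself, the main heat shock factor, stood at -0.26 (SE 0.24; edgeR adjusted p = 0.9325). Its relative HSF2 stood at -0.37 (SE 0.25; edgeR adjusted p = 0.915). HSF2 lay between 15.8 and 17.3 CPM in SOX10 libraries and between 18.8 and 25.1 CPM in control libraries. Such a separation downward was seen in 6.03% of all tested genes. The 5 positive genes of the list were CLU at 0.18, MRPL18 at 0.14, HSBP1 at 0.09, UBB at 0.07 and HMOX1 at 0.002. SERPINH1, counted as negative, was at -0.004. These genes, HSF1 and HSF2 are named after their values were seen.

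**Figure D5:**
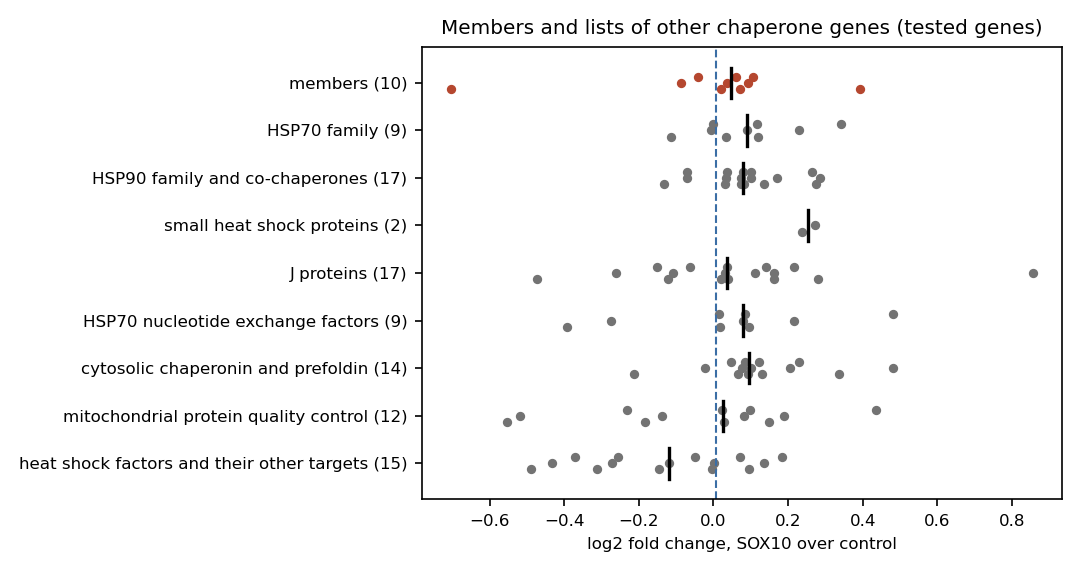
Log2 fold change, SOX10 over control, of each tested gene (points) in the members and 8 lists of other chaperone genes, with the number tested in brackets, black bars at list medians and a dashed line at the median of all tested genes. Medians lie between -0.12 and 0.25, and that of the heat shock factors and their other targets is the only one left of the dashed line.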

How the data were processed

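RNA from 6 libraries was sequenced, each made from 125 ng of total RNA with the Encore Complete kit, per the labels' protocols. TopHat 1.4.0, HTSeq, DESeq and the build hg19 appear in the submitters' processing notes. Neither labels nor table state the annotation, overlap mode or strand setting. The authors deposited raw whole-number counts per gene symbol, with 5 class rows that name no gene. These rows were left out. They held 39.4% to 46.9% of all records (outside genes), 17.7% to 19.1% (more than 1 place), 0.435% to 0.551% (ambiguous) and 0 (low quality, unaligned).

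Columns were matched by sample title and groups by the treatment label. Genes were tested by quasi-likelihood in edgeR (4.0.16; R 4.3.3) over all 6 libraries, with TMM, filterByExpr (minimum count 10, total 15), no covariate and Benjamini-Hochberg adjustment over 10678 genes at 0.05. CPM are per assigned read, scaled by TMM. Intervals are 95%, and a count of 0 allows 3 reads, or 0.72 to 3.46 CPM before TMM scaling. Replicates were not duplicates of each other (chi-square per degree of freedom 2.11 to 7.03). Scripts were tested on simulated data. DESeq2 1.42.0 and limma-voom (limma 3.58.1) were alternatives.

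Transcript lengths, 50-base windows and exon overlaps came from GENCODE release 29 (GRCh38, another build than hg19) and promoters from RefSeq (GRCh38.p14), where all 10 members matched by symbol. The members and lists were chosen with earlier results of these data known. Beside all members, SOX10 and PMP2, the text names, per list, the 2 tested genes of lowest p and any called gene. The labels call the replicates biological without naming separate cultures, so p-values measure the spread between these samples.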

Additional observations from a re-analysis of the deposited data

How the results depend on the processing

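The count of members called was 0 in each direction in all 16 alternatives, and the median log2 fold change of the members ran from 0.01 to 0.09. The number of all genes called, 12, became 48 without a filter on low counts, 52 with reads outside genes as a covariate, 7 without SOX10 replicate 1 and control replicate 3 (chosen after seeing the data), and 6 to 18 without single libraries, with 6 for control replicate 1. Of the other chaperone genes 1, IER5L, was called with that covariate, and 0 to 1 without single libraries. With the replicate number as a block 7 genes and no member were called. Deviations of same-numbered libraries had correlations of -0.03, -0.03 and -0.14. Counting error in shallow libraries can hide a pairing, so whether the numbers are pairs is not known. Some signs turned. Without single libraries HSPA1A ran from -0.082 to 0.012, HSPH1 from -0.039 to 0.19, DNAJB1 from -0.10 to 0.093, HSPD1 from -0.0078 to 0.083, HSPB11 from -0.12 to 0.46 and CRYAB from -0.060 to 1.55. HSPA8 ran from 0.06 to 0.12, BAG3 from 0.05 to 0.16 and HSP90AA1 from 0.04 to 0.11, all positive. HSPE1 was -0.023 after thinning and HSPB11 -0.31 without the pair of libraries. The log2 ratio of the inducible pair to HSPA8, -0.53, was -0.14 for HSPA1A alone and -0.82 for HSPA1B alone. The cause was not tested for any of these. HSPA1A had too few reads for the test after thinning. Depth limits the inducible pair most, with 131 and 167 reads in all.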

Other observations

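Some chaperones with too few reads for a test are given here, named after their values were seen. The small heat shock proteins HSPB2, HSPB3, HSPB7, HSPB8 and HSPB9 had at most 6 reads each over all 6 libraries, and HSPB6 had 29. HSPA6, an HSP70 that human cells make almost only under strong stress, had 3, 2 and 11 reads in SOX10 libraries and 3, 1 and 9 in control libraries, or 0.79 to 2.64 CPM and 1.14 to 4.35 CPM. HSPA7, a relative annotated as a pseudogene, had 1 read in all.

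CCT6B, a testis form of a chaperonin subunit, had 5, 3 and 6 reads in SOX10 libraries and 0 in every control library. The SOX10 libraries stood at 1.19 to 1.44 CPM, while a count of 0 allows 1.45 to 3.46 CPM in control libraries before TMM scaling. CCT6B had too few reads for the test, so the difference was not tested. HSPA1L, a testis HSP70 that neighbours HSPA1A on chromosome 6, had 7, 4 and 8 reads in SOX10 libraries and 1, 0 and 2 in control libraries, also too few for the test. In CPM this was 1.86, 1.58 and 1.92 in SOX10 libraries against 1.10, 0 and 0.966 in control libraries. The count of 0 in control replicate 2 allows up to 3.46 CPM before TMM scaling, above each SOX10 value. The HSPA1L difference was not tested.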
